A study of Mus musculus with 9 samples.

Results

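The data describe how often the mouse Dbp locus, on chromosome 7, was ligated to sequences on chromosomes 12, 13, 14, 16 and 18. All probed positions that the files place on these 5 chromosomes were taken, which gave 81826 of 384942 probes per array. Chromosome 12 held 17294 of them, chromosome 13 held 17879, chromosome 14 held 17740, chromosome 16 held 14928 and chromosome 18 held 13985.

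Circular chromosome conformation capture (4C) joins DNA fragments that lie close together in the crosslinked nucleus and then amplifies what was joined to one chosen site, the viewpoint. Chromosomes occupy separate territories, so most joined fragments come from the viewpoint's own chromosome, and contacts with other chromosomes are rarer and are often read from clusters of positive probes. Dbp is a clock output gene that codes for a transcription factor and is transcribed in a daily rhythm. Bmal1 codes for one of the activators of the clock, and it drives Dbp.

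Mouse embryonic fibroblasts were given dexamethasone for 2 h, which sets their clocks to a common phase, and were harvested after the wash at a stated circadian time (CT, in hours). A wild-type (WT) line 1 was taken at CT22, CT26, CT30, CT34 and CT46, a line without Bmal1 (Bmal1-/-) at the times CT22 and CT34, and WT line 2, derived independently, at those same times. Each of the 9 samples went on 1 two-colour array, with 4C DNA in Cy5 against digested genomic DNA of the same cells in Cy3, without a dye swap. Siblings gave line 1 and the Bmal1-/- cells, whereas line 2 came from another cross. The labels put line 2 in medium with 10% fetal bovine serum, and for line 1 and the Bmal1-/- cells they disagree between 5% newborn calf with 5% heat-inactivated fetal bovine serum and 10% heat-inactivated fetal bovine serum, so how far the media differed is unclear. Each genotype and cross is therefore represented by a single culture lineage, the Bmal1-/- deletion and its line cannot be told apart, and neither can line 2, its cross and any difference in medium. The array names of line 2 carry 24 and 36 where the labels give 22 and 34, and the label times are used.

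The value per probe is the log2 ratio of 4C DNA to genomic DNA. A probe was called high when its ratio exceeded the 95th percentile of its own array over the 365587 probes off chromosome 7, so an average chromosome off chromosome 7 has a share of about 5% by construction, and a share on one chromosome is relative to the rest. That percentile lay between 1.67 and 2.11 in line 1, at 2.21 and 2.80 in the Bmal1-/- arrays, and at 0.51 and 0.53 in line 2. The range of ratios in line 2 was thus much narrower, and its part in the differences from line 1 described here was not tested. The share of line 2 also lay somewhat under 5%. It was 4.55% and 4.57% on the 5 chromosomes and 4.94% and 4.95% on the 13 other autosomes off chromosome 7. Comparisons of shares between lines were not adjusted for this. Windows are 1 Mb long and were kept with at least 100 probes, which left 511 of 541 windows: 109 on chromosome 12, 109 on chromosome 13, 112 on chromosome 14, 94 on chromosome 16 and 87 on chromosome 18. A kept window held a median of 159 probes. Positions are those of the files, and no source used here gives their genome build, so no gene is named for a window.

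Chromosome 18 had the highest share of high probes of the 5 and chromosome 14 the lowest. The share of chromosome 18 was 5.15% at CT22, 5.35% at CT26, 5.16% at CT30, 5.26% at CT34 and 5.13% at CT46 in line 1, 5.34% and 5.18% in the Bmal1-/- arrays of CT22 and CT34, and 4.68% and 4.53% in line 2 at the same times. Both line 2 arrays lay under each of the other 7 on this chromosome. On chromosome 14 the share was 3.86%, 3.74%, 3.62%, 4.01% and 4.04% over the same 5 times of line 1, 4.36% and 4.32% in the Bmal1-/- line, and 4.22% and 4.60% in line 2. Here the order of the lines was turned, with line 1 the lowest and both other lines above its range. A single array's share carried a 95% Clopper-Pearson interval of 4.79% to 5.53% for chromosome 18 and of 3.58% to 4.16% for chromosome 14 at CT22 in line 1, which covers counting error only.

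The other 3 chromosomes lay between these and close together. Chromosome 12 averaged 4.73% ± 0.0969 (SD, n = 5) in line 1 and 4.73% in each of the other lines, and its 9 arrays stayed between 4.62% and 4.86%. Chromosome 13 averaged 4.81% ± 0.0678 (SD, n = 5) in line 1, with 4.87% and 5.01% in the Bmal1-/- arrays and 4.54% and 4.45% in line 2. Chromosome 16 averaged 4.54% ± 0.129 (SD, n = 5) in line 1, and the CT22 array of the Bmal1-/- line stood above the rest at 5.06%, while its CT34 array was at 4.60% and line 2 was at 4.58% and 4.59%.

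**Figure D1:**
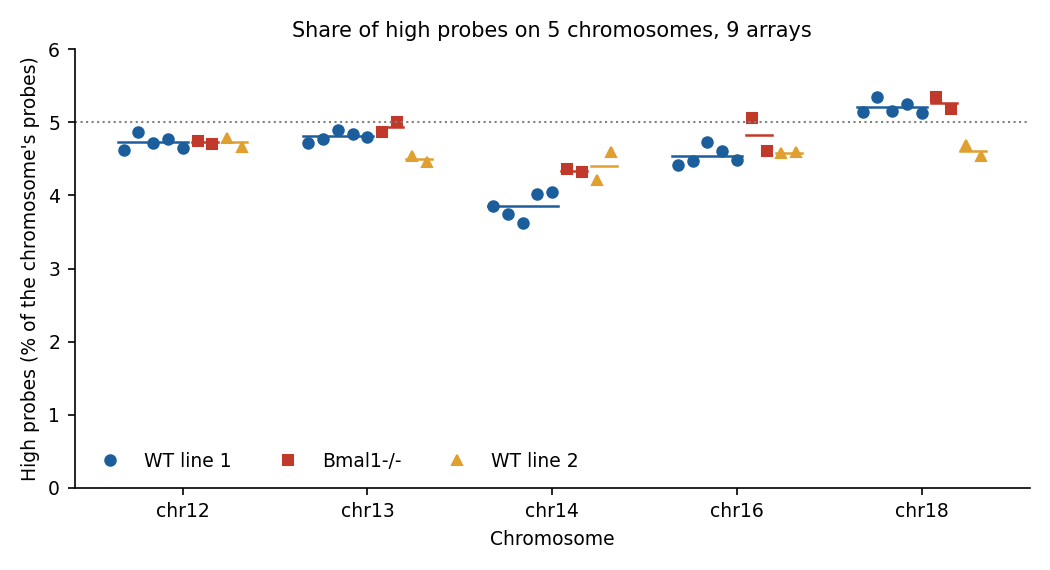
Share of high probes (percent of a chromosome's probes, vertical axis from 0) on each of the 5 chromosomes, with 1 point per array, ordered by time within a line, horizontal bars at the mean of each line, and a dotted line at 5%. Chromosome 18 sits above 5% in line 1 and Bmal1-/- and at 4.68% and 4.53% in line 2, and chromosome 14 sits lowest in line 1.

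Each pair of chromosomes was compared within arrays, over 9 arrays, with an exact two-sided sign-flip permutation test and Benjamini-Hochberg adjustment over the 10 pairs. The smallest p that 9 arrays allow is 0.00391. Arrays of one line share their cells, so the test measures the spread between arrays and not between animals. Of the 10 pairs, 7 passed an adjusted p of 0.05. Chromosome 14 lay below each of the other 4 chromosomes, by 0.529 points against chromosome 16, 0.641 against chromosome 12, 0.682 against chromosome 13 and 1.00 against chromosome 18 (exact permutation test, adjusted p = 0.0130 for each, 8 or 9 of 9 arrays in that direction). Chromosome 18 lay above chromosome 13 by 0.318 points in 9 of 9 arrays and above chromosome 16 by 0.470 points in 8 of 9 (exact permutation test, adjusted p = 0.0130 for both). It lay above chromosome 12 by 0.359 points in 7 of 9 arrays (exact permutation test, adjusted p = 0.0223), and in line 2 this difference was turned, at -0.119 points on average.

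Chromosomes 12, 13 and 16 were not separated from each other. Chromosome 13 exceeded chromosome 12 by 0.0411 points with an SD over arrays of 0.185 (exact permutation test, adjusted p = 0.516), chromosome 12 exceeded chromosome 16 by 0.111 points with an SD of 0.194 (adjusted p = 0.143, exact permutation test), and chromosome 13 exceeded chromosome 16 by 0.152 points with an SD of 0.219 (adjusted p = 0.103, exact permutation test). With the cut at the 99th percentile no pair passed, and with the mean log2 ratio per chromosome in place of the share 4 pairs passed.

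Against the 13 other autosomes off chromosome 7, the 5 chromosomes together held fewer high probes. The difference was -0.552 points with an SD of 0.172 over arrays, and it was negative in 9 of 9 arrays (exact two-sided sign-flip permutation test, p = 0.00391). The 5 chromosomes were chosen with earlier results of these data known, so this p is no independent support for the difference. It averaged -0.687 points in line 1, -0.387 points in the Bmal1-/- line and -0.379 points in line 2. Within the ranking of 19 chromosomes off chromosome 7, chromosome 18 had rank 7 by its mean in line 1 and in the Bmal1-/- line and rank 12 in line 2. Chromosome 14 had ranks 17, 15 and 16 in the same order. Chromosomes 12, 13 and 16 had ranks 12, 11 and 13 in line 1, so the deficit is against the pooled autosomes and not against each of them.

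The surplus of chromosome 18 was not spread evenly along it. Its first 10 Mb of probed sequence, with 1476 probes, held 10.4%, 11.9%, 11.9%, 10.1% and 10.6% high probes over the 5 times of line 1 and 10.4% and 10.8% in the Bmal1-/- arrays. In line 2 the same segment held 4.67% and 4.34%, below every line 1 and Bmal1-/- array by more than 5 points. The remainder of chromosome 18 averaged 4.53% in line 1, 4.63% in the Bmal1-/- line and 4.62% in line 2, so in this measure the lines lay close together outside the first 10 Mb. The last 10 Mb of chromosome 18 held 2.41% ± 0.312 (SD, n = 5) in line 1, 2.51% in the Bmal1-/- line and 3.87% in line 2. With 10 Mb left out at both ends of each chromosome, chromosome 18 no longer exceeded chromosome 13 (-0.0919 points, exact permutation test, adjusted p = 0.312), while it exceeded chromosome 12 by 0.265 points (exact permutation test, adjusted p = 0.0130).

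The first 10 Mb of chromosome 18 had rank 2 of 19 chromosomes off chromosome 7 in line 1 and in the Bmal1-/- line, and rank 12 in line 2. Line 2 minus line 1 was -6.47 points there, the lowest of the 19 after chromosome 19 with -8.67 points. The segment and the comparison were chosen after the values were seen, and no test was made of them.

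The ends of the other chromosomes ran differently. Chromosome 16 held 7.30% ± 0.767 (SD, n = 5) high probes in its last 10 Mb in line 1 and 4.22% in its first 10 Mb, with 6.49% and 4.21% in the Bmal1-/- line and 5.38% and 4.93% in line 2. Chromosome 12 also rose toward its last 10 Mb in line 1, to 6.70% ± 0.993 (SD, n = 5), where the CT26 array stood highest at 8.30%. Chromosomes 13 and 14 were poor at the start, with 3.07% and 2.81% in their first 10 Mb in line 1. The middle and the last 10 Mb of chromosome 14 held 3.93% and 3.99% in line 1, so it did not decline evenly from its start. Over 4 equal lengths of its probed span the line 1 share fell, from 4.78% ± 0.341 to 4.42%, 3.58% and 2.81% ± 0.203 (SD, n = 5). The Bmal1-/- line gave 5.41%, 4.63%, 4.08% and 3.39% over the same lengths. Line 2 gave 5.08%, 4.73%, 3.71% and 4.23%, so its last length was higher than the one before it. On chromosomes 13 and 16 length 3 was the lowest in line 1, at 3.15% and 2.64%.

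**Figure D2:**
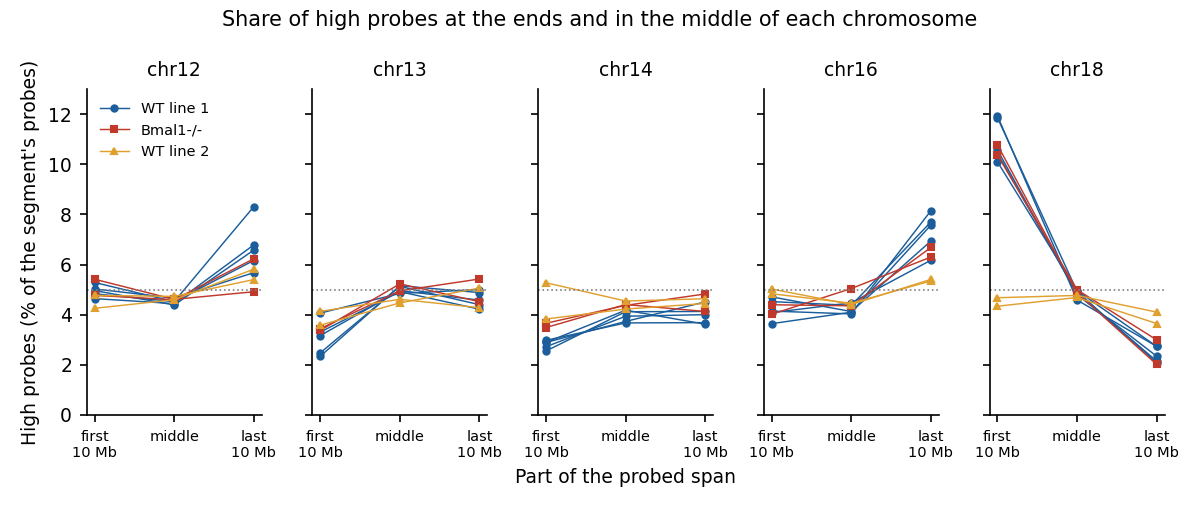
Share of high probes (percent of a segment's probes) in the first 10 Mb, the middle and the last 10 Mb of each chromosome's probed span, with 1 line of points per array coloured by cell line and a dotted line at 5%. On chromosome 18 the 5 line 1 and both Bmal1-/- arrays start above 10% and line 2 starts at 4.67% and 4.34%.

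The spread of windows within a chromosome was measured as the SD of the share over its 1 Mb windows. Its mean over arrays was highest on chromosome 18, at 3.72, 4.58, 4.02, 3.64 and 3.69 points over the 5 times of line 1, 3.37 and 4.01 points in the Bmal1-/- line, and 1.91 and 1.94 points in line 2. It was narrow on chromosome 13, at 2.86, 2.90, 3.36, 2.86 and 2.79 points in line 1, 2.74 and 3.04 points in the Bmal1-/- line and 1.84 and 1.68 points in line 2. Line 2 lay below the line 1 range on both. Chromosomes 12, 14 and 16 averaged 3.78, 3.04 and 3.61 points in line 1.

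Of the 10 pairs of chromosomes, 7 differed in spread (exact two-sided sign-flip permutation test over 9 arrays, adjusted p under 0.05). Chromosomes 12, 16 and 18 each exceeded chromosomes 13 and 14, by between 0.425 points (16 over 14) and 0.756 points (18 over 13), with adjusted p between 0.0130 and 0.0223 by the exact permutation test. Chromosome 18 exceeded chromosome 16 by 0.287 points in 8 of 9 arrays (exact permutation test, adjusted p = 0.0195). The pairs 18 and 12, 12 and 16, and 14 and 13 were not separated, with differences of 0.171, 0.116 and 0.0435 points (exact permutation test, adjusted p = 0.186, 0.299 and 0.688). In line 2 chromosome 14 exceeded chromosome 16, with 16 over 14 at -0.123 points, and 18 over 14 stood at -0.0151 points.

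Chromosomes 13 and 14 were both narrow but at different shares. Of the windows of chromosome 14, 41.1% ± 6.28 (SD, n = 5) held under 2.5% high probes in line 1, against 25.9% ± 2.86 on chromosome 13. Windows with at least 10% high probes made up 14.5% ± 3.00 of chromosome 18 in line 1, 10.1% ± 1.59 of chromosome 12, 8.72% ± 2.31 of chromosome 16, 6.24% ± 2.09 of chromosome 13 and 4.64% ± 0.746 of chromosome 14 (SD, n = 5). In line 2 such windows were nearly absent, at 0 on chromosomes 13 and 14 and at most 2 on any of the 5 chromosomes in either array.

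Set against the spread that counting alone would give for windows of this size, the line 1 ratio averaged 2.22 on chromosome 18, 2.20 on chromosome 12, 2.17 on chromosome 16, 1.97 on chromosome 14 and 1.72 on chromosome 13. Line 2 averaged between 1.06 on chromosome 13 and 1.26 on chromosome 12, the lowest of the lines on each chromosome, and its 2 arrays correlated with r = 0.603 over the 511 windows. Line 2 lay below the line 1 range on each of the 5 chromosomes, and the same held for 94.7% of the 19 chromosomes off chromosome 7. The Bmal1-/- arrays lay below the line 1 range on chromosomes 12 and 14, which are 2 of the 5, against 52.6% of the 19.

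**Figure D3:**
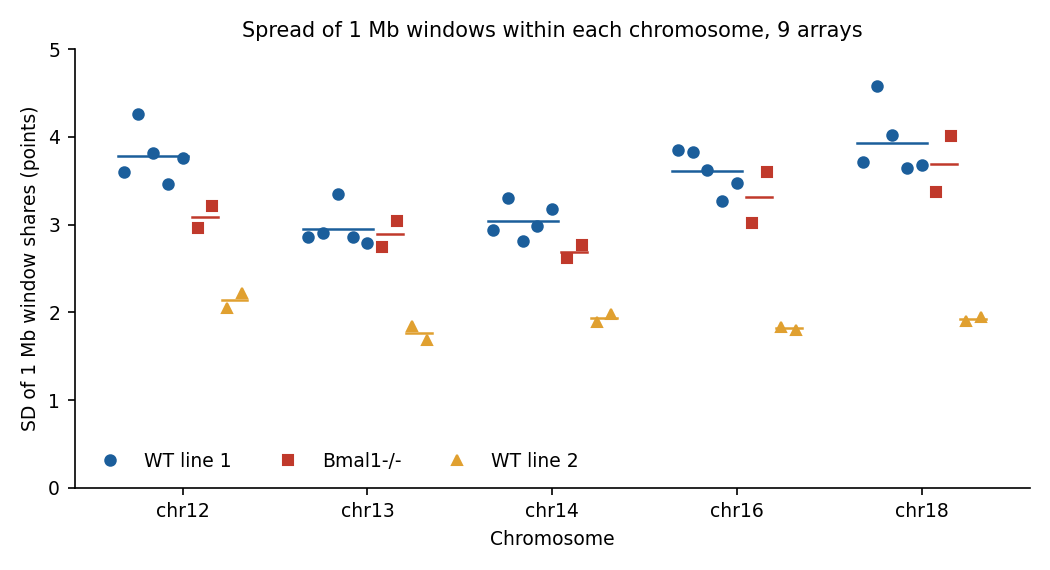
SD over 1 Mb windows of the share of high probes (percentage points, vertical axis from 0) on each chromosome, with 1 point per array and horizontal bars at the mean of each line. Line 2 stays between 1.68 and 2.22 points, and line 1 lies between 2.79 and 4.58 points.

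The strongest windows were chosen as the 5 with the highest mean share over the line 1 arrays on each chromosome, so their line 1 values are a description. The Bmal1-/- and line 2 values took no part in that choice. On chromosome 12 the leading window was chr12:111000001-112000000, with 164 probes. Its share was 18.9% at CT22, 19.5% at CT26, 17.1% at CT30, 13.4% at CT34 and 18.3% at CT46 in line 1, 15.2% and 14.6% in the Bmal1-/- line, and 6.71% and 13.4% in line 2. It led chromosome 12 in all 3 lines by their means.

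Chromosome 12 was strong around this window. The windows at 109, 110 and 111 Mb were each called at 3 or more times of line 1, not necessarily the same times. They jointly held 14.4% ± 1.68 (SD, n = 5) high probes in line 1, 12.9% in the Bmal1-/- line and 8.44% in line 2. The window at 113 Mb averaged 12.9% in line 1, with 12.1%, 15.7%, 15.7%, 6.43% and 14.3%, but held 4.29% in both Bmal1-/- arrays and 5.00% and 7.86% in line 2. It had rank 4 on the chromosome in line 1 and rank 49 in the Bmal1-/- line. The window at 3 Mb, the first with probes, held 13.0% ± 2.67 (SD, n = 5) in line 1 and 12.9% in the Bmal1-/- line, and 5.42% in line 2. The window at 80 Mb held 12.7% in line 1, 12.2% in the Bmal1-/- line and 8.04% in line 2.

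On chromosome 13 the leading window was chr13:55000001-56000000, with 15.5%, 10.8%, 15.5%, 11.5% and 14.2% over the times of line 1, 7.43% and 12.8% in the Bmal1-/- line and 6.08% and 7.43% in line 2. It had rank 5 on the chromosome in the Bmal1-/- line and rank 13 in line 2. The windows at 102 and 103 Mb formed a pair that was higher in the Bmal1-/- line than in line 1, at 13.9% against 11.4% ± 1.84 and at 14.3% against 11.3% ± 2.68 (SD, n = 5), and low in line 2, at 5.33% and 4.46%. The Bmal1-/- arrays overlapped the line 1 range at both windows. The window at 99 Mb held 11.1% in line 1 and 12.9% in the Bmal1-/- line, and with 8.15% it was the strongest window of chromosome 13 in line 2. The window at 32 Mb, the fifth by the line 1 mean, held 10.1% in the Bmal1-/- line and 4.14% in line 2.

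On chromosome 14 the leading window was chr14:30000001-31000000. It held 13.5% ± 1.59 (SD, n = 5) in line 1, from 10.8% at CT30 to 14.6% at both CT22 and CT34, 12.1% in each Bmal1-/- array, and 8.92% and 8.28% in line 2, where it was again the first of its chromosome. The window at 45 Mb was the first of chromosome 14 in the Bmal1-/- line, at 11.7% and 15.2%, against 10.5% ± 2.15 (SD, n = 5) in line 1. The windows at 24, 68 and 19 Mb averaged 11.7%, 10.8% and 10.2% in line 1, 9.26%, 8.77% and 8.33% in the Bmal1-/- line and 7.41%, 4.87% and 6.17% in line 2.

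On chromosome 16 the strong windows gathered in clusters. The leading window, chr16:17000001-18000000, held 12.7%, 12.7%, 17.8%, 13.4% and 12.1% in line 1, 11.5% and 12.7% in the Bmal1-/- line, and 7.01% and 5.10% in line 2. Its neighbour at 18 Mb held 16.4%, 14.2%, 5.97%, 14.2% and 11.9% in line 1, so at CT30 the one was at its highest and the other at its lowest. Taken as one segment of 2 windows the share was 13.2% ± 0.990 (SD, n = 5). A second cluster covered the windows at 30, 31 and 32 Mb, with 11.4% ± 1.74 (SD, n = 5) in line 1, 11.7% in the Bmal1-/- line and 6.50% in line 2. The window at 4 Mb held 12.7% ± 2.03 (SD, n = 5) in line 1, and 8.33% and 8.02% on average in the Bmal1-/- line and line 2.

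On chromosome 18 the leading window was chr18:35000001-36000000, with 173 probes. It held 16.8%, 16.2%, 13.3%, 18.5% and 13.9% in line 1, 13.3% and 16.8% in the Bmal1-/- line, and 8.09% and 9.25% in line 2. It was strong in each line, with rank 2 on the chromosome in the Bmal1-/- line and rank 4 in line 2. The windows at 10, 11 and 12 Mb behaved otherwise: they held 13.0%, 13.8% and 12.5% in line 1 and 11.9%, 15.4% and 9.88% in the Bmal1-/- line, but 5.30%, 3.85% and 5.25% in line 2. The window at 11 Mb was the strongest of chromosome 18 in the Bmal1-/- line and had rank 56 of its 87 windows in line 2. The window at 61 Mb held 13.3% ± 2.61 (SD, n = 5) in line 1, 10.7% and 17.0% in the Bmal1-/- arrays and 8.18% and 7.55% in line 2.

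**Figure D4:**
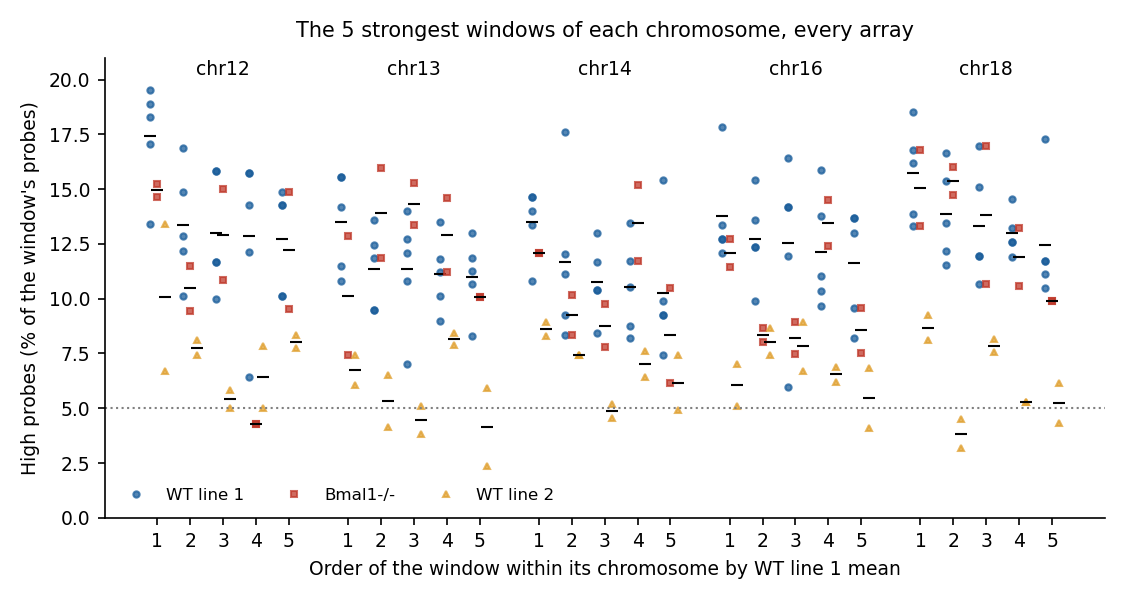
Share of high probes (percent of a window's probes, vertical axis from 0) in the 5 strongest windows of each chromosome, ordered by the line 1 mean that chose them, with 1 point per array, a black dash at each line's mean and a dotted line at 5%. The first window of chromosome 12 reaches 19.5% in line 1, and the second window of chromosome 18 holds 14.7% and 16.0% in Bmal1-/- and 4.49% and 3.21% in line 2.

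The windows next in order were close to the last ones taken. The sixth window held 12.6% on chromosome 12, at 86 Mb, 9.71% on chromosome 13, 10.0% on chromosome 14, 10.9% on chromosome 16 and 12.2% on chromosome 18. That at 86 Mb on chromosome 12 held 12.5% in the Bmal1-/- line and 2.74% in line 2. The weakest windows lay at 64 Mb on chromosome 12 (0.567%), at 7 Mb on chromosome 13 (1.01%), at 34 Mb on chromosome 14 (0.578%), at 73 Mb on chromosome 16 (0.510%) and at 85 Mb on chromosome 18 (0.719%), as means of line 1. In line 2 the same windows held 3.55%, 2.88%, 3.18%, 5.10% and 2.16%.

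Windows chosen in line 1 were tracked in the other lines. In the Bmal1-/- arrays the 25 strongest windows had a median share of 10.7% at CT22 and 12.4% at CT34, against 4.26% and 3.86% in the other 486 windows, and 25 of 25 lay above that median at both times. In line 2 their medians were 6.51% and 7.41%, against 4.27% and 4.11%, and 23 of 25 lay above it at each time. The choice used line 1 alone, and these counts have no test.

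**Figure D5:**
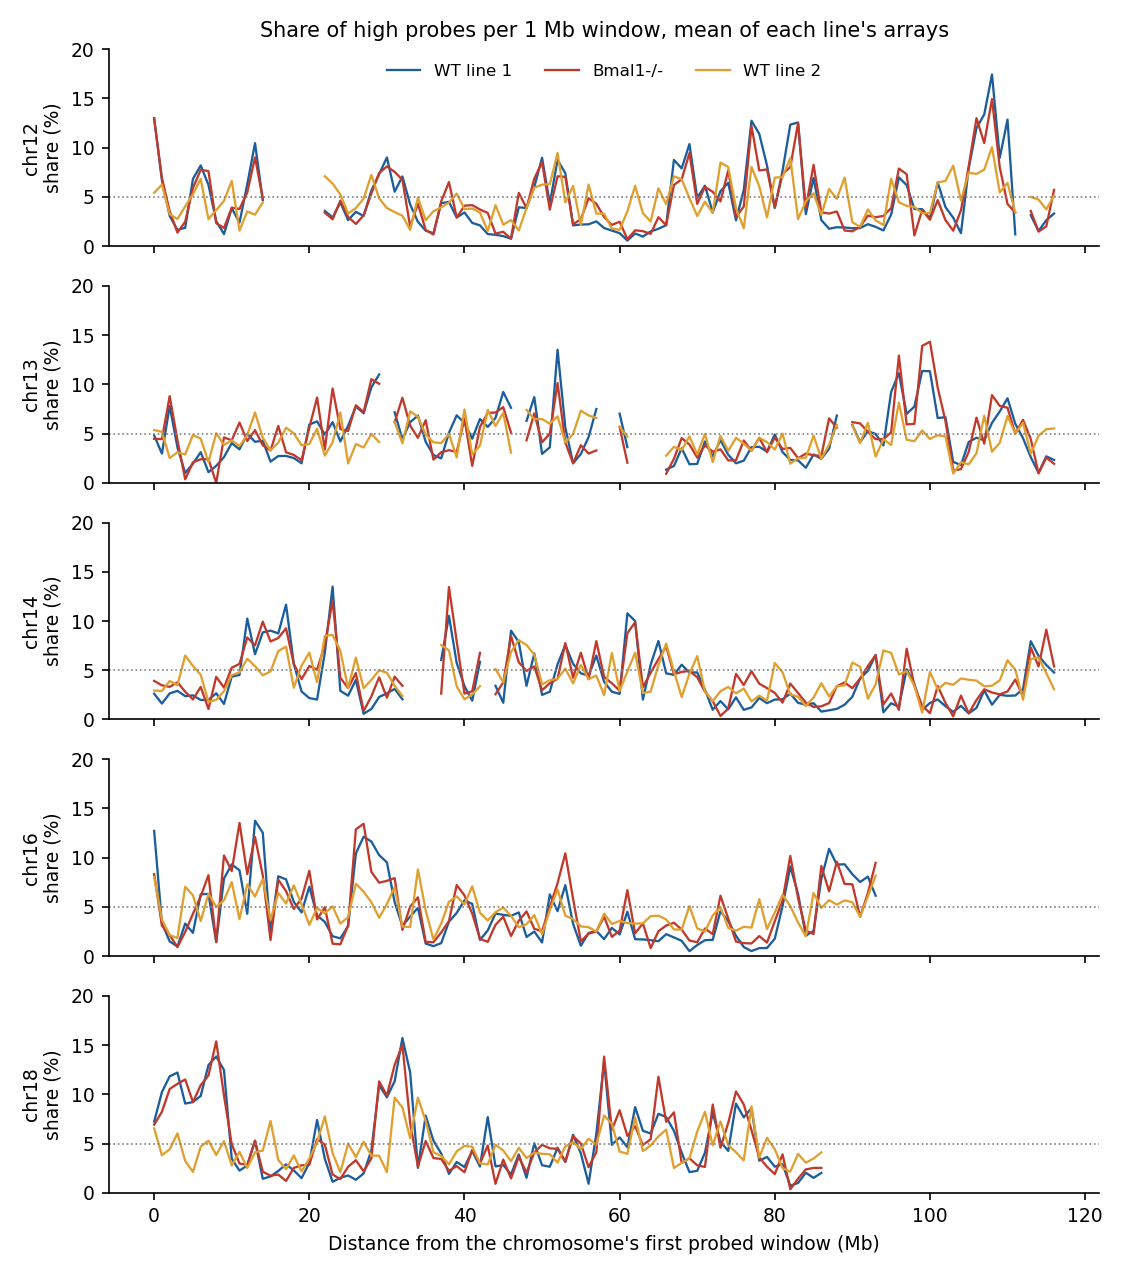
Share of high probes per 1 Mb window (percent, mean of the 5 line 1, 2 Bmal1-/- and 2 line 2 arrays) along each chromosome, against the distance in Mb from its first probed window, with gaps where a window had under 100 probes and a dotted line at 5%. The line 1 and Bmal1-/- profiles run together with medians of r between 0.674 and 0.825, and on chromosome 18 line 2 lacks the plateau at the start.

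Across the 511 windows the profiles of 2 line 1 arrays correlated with r between 0.763 and 0.822 (10 pairs of arrays), those of line 1 and Bmal1-/- arrays with r between 0.715 and 0.833 (10 pairs), and those of line 1 and line 2 arrays with r between 0.358 and 0.418 (10 pairs). Windows share probes, array design and neighbours, so these are descriptions. By chromosome, the median r between line 1 and line 2 was lowest on chromosome 18, at 0.258 over 87 windows, although the median between line 1 and Bmal1-/- was highest there, at 0.825. The 2 line 2 arrays correlated with each other on chromosome 18 with r = 0.652. Neighbouring windows were alike, with r between 0.528 on chromosome 14 and 0.652 on chromosome 18 for the line 1 means. The share did not follow probe number closely, with r between -0.133 on chromosome 16 and 0.288 on chromosome 13 over windows.

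A contact window was called on 1 array when its number of high probes exceeded the array's share off chromosome 7 by a one-sided binomial test with Benjamini-Hochberg adjustment at 0.05. Of the 511 windows, 11 met this on each of the 5 line 1 arrays, which is 2.15%, against 5.17% of all 2342 windows off chromosome 7. Chromosome 18 held 5 of the 11, at 10, 11, 12, 35 and 61 Mb, chromosome 12 held 3, at 80, 86 and 111 Mb, and chromosomes 13, 14 and 16 held 1 each, their leading windows. On chromosome 18 that was 5.75% of its windows. In the 1688 windows of the other autosomes the share was 6.52%. Of the 11 windows, 7 were also called in both Bmal1-/- arrays, against 83 of the 121 such windows off chromosome 7. Whatever their line 1 calls, 17 of the 511 were called in both Bmal1-/- arrays, against 5.47% off chromosome 7. The window at 111 Mb of chromosome 12 was the only one of the 511 called on a line 2 array, against 1.92% of windows off chromosome 7 called on at least 1 line 2 array.

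Calls at 3 or more times of line 1 joined into longer segments on chromosome 18. One of 3 windows covered 4 to 7 Mb and held 11.4% ± 1.15 (SD, n = 5) high probes in line 1, 9.87% in the Bmal1-/- line and 4.72% in line 2. One of 4 windows covered 9 to 13 Mb and held 12.4% ± 1.30, 12.1% and 4.77% in the same order. One of 3 windows covered 34 to 37 Mb, with 13.2% ± 2.08, 11.8% and 7.94%. Both segments at the start of the chromosome were at the level of the array in line 2, and that at 34 to 37 Mb stood above it.

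Within the leading window of each chromosome no single 100 kb piece held most of the high calls of line 1. Divided into 10 pieces of 100 kb, with calls pooled over the 5 line 1 arrays, each of the 5 windows had high probes in 10 of 10 pieces. In windows chosen for a high line 1 share that was likely in advance, so it shows no even spread. The richest piece held between 14.2% (chromosome 14) and 19.4% (chromosome 16) of the window's high calls. In the window of chromosome 16 that piece, from 17.6 to 17.7 Mb, had 14 probes, of which 21.4%, 28.6%, 50.0%, 28.6% and 21.4% were high over the 5 times and none in line 2. Few single probes were high on every array: 152 probes, or 0.186% of the 81826, were high on all 5 line 1 arrays, against 0.245% off chromosome 7, and 3, or 0.00367%, were high on all 9 arrays, against 0.00903%. A further 13.9% were high on a single line 1 array, against 14.1% off chromosome 7, and 82.4% on none, against 81.6%. The remaining probes were high on several but not all of the line 1 arrays.

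By whole chromosome, differences with circadian time did not repeat over all 3 lines. On chromosome 12, CT34 minus CT22 was 0.156 points in line 1, -0.0405 points in the Bmal1-/- line and -0.121 points in line 2. On chromosome 13 these were 0.123, 0.140 and -0.0895 points, on chromosome 14 they were 0.152, -0.0451 and 0.383 points, on chromosome 16 they were 0.194, -0.462 and 0.0134 points, and on chromosome 18 they were 0.107, -0.164 and -0.150 points. No chromosome moved one way in all 3 lines. The WT lines shared a sign on chromosomes 14 and 16, and line 1 and Bmal1-/- on chromosome 13. Bmal1-/- and line 2 shared one on chromosomes 12 and 18. No test was made of these differences. Over windows, the median SD across the 5 times of line 1 was 1.27 points, and the median binomial SE of 1 array was 1.5 points. Among the 25 strongest windows the SD over times exceeded the SE in 6 and did not in 19. The 6 were at 113 Mb on chromosome 12 (3.88 against 2.79 points), 103 Mb on chromosome 13 (2.68 against 2.51), 24 and 19 Mb on chromosome 14 (3.62 against 3.05 and 3.04 against 2.36), 18 Mb on chromosome 16 (4.00 against 2.82) and 12 Mb on chromosome 18 (2.74 against 2.58). The share of all windows with an SD above the SE was not counted, so the 6 are not shown to vary with time more than others.

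Among the 25 strongest windows, CT34 minus CT22 had one sign in all 3 lines in 4, each positive. They were the windows at 80 Mb on chromosome 12, with differences of 4.17, 5.36 and 0.595 points in line 1, Bmal1-/- and line 2, at 99 Mb on chromosome 13, with 1.12, 3.37 and 0.562 points, at 19 Mb on chromosome 14, with 1.85, 4.32 and 2.47 points, and at 35 Mb on chromosome 18, with 1.73, 3.47 and 1.16 points. Of all 511 windows, 18.2% had one sign in all 3 lines. The time of the highest value in line 1 fell at CT22 for 5 of the 25, at CT26 for 7, at CT30 for 5, at CT34 for 4 and at CT46 for 4.

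Window shares were then tested with limma on the log2 odds of the share, fitted and adjusted by Benjamini-Hochberg over all 2464 windows. For WT CT34 against WT CT22 (4 arrays, no term for line), no window of the 511 passed an adjusted p of 0.05, and 2 had an unadjusted p under 0.05, against 0.446% of all windows. The smallest unadjusted limma p was at 106 Mb on chromosome 14, where no probe was high at CT22 in either WT line and 2.10% and 1.40% of 143 probes were at CT34 in lines 1 and 2 (log2 odds difference 2.59 with a standard error of 0.42, adjusted p = 1). Those shares are 3 and 2 probes, and with the mean log2 ratio in place of the share the difference was -0.0138. The window at 90 Mb on chromosome 14 went the other way, from 3.85% and 3.08% at CT22 to 0.769% and 1.54% at CT34 in lines 1 and 2 (limma adjusted p = 1). This fit did not pair CT22 with CT34 within a line. With line as a block, which left 1 residual degree of freedom, 0 windows passed. At an unadjusted limma p under 0.05 there were then 16 of the 511, against 65 of all 2464.

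For Bmal1-/- against WT at matched times (6 arrays), no window of the 511 passed with limma, and 16 had an unadjusted p under 0.05, against 3.49% of all windows. Of these, 6 were higher in Bmal1-/-, against 0.852% of all windows, and 10 were lower, against 2.64%. That balance depended on the setting: with line as a block 23 of 32 were higher, with quantile-normalized mean log2 ratios 19 of 30, and with unscaled mean log2 ratios 134 of 134, where the median of all windows was itself shifted by 0.14. The lowest p was at 11 Mb on chromosome 13, where no probe of 139 was high in either Bmal1-/- array and between 0.719% and 3.60% were in line 1 and 6.47% and 3.60% in line 2 (limma log2 odds difference -3.26, standard error 0.60, adjusted p = 0.984). At 101 Mb on chromosome 12 the share was 0.725% and 1.45% in the Bmal1-/- arrays and between 2.17% and 5.07% in the WT arrays of both lines, and at 44 Mb on chromosome 14 it was 2.63% in both Bmal1-/- arrays and between 4.61% and 9.21% in the WT arrays (limma adjusted p = 0.984 for both). Both Bmal1-/- arrays lay below every WT array in these windows, which were taken for their small p in this same comparison. That separation is a description, and its share over all windows was not counted. The shares at 11 Mb stand for few probes, so the 0.5 added to each count weighs on that difference. With the unscaled mean log2 ratio, shifted by 0.14 as above, the difference was -0.0251 at 11 Mb. It was 0.0492 at 101 Mb and 0.0314 at 44 Mb, so there the sign turned. In the other two of the 5 lowest p the groups overlapped over the 9 arrays: at 107 Mb on chromosome 14 the Bmal1-/- arrays held 0 and 1.29% and the WT arrays between 0.645% and 5.16%, and at 47 Mb on chromosome 18 they held 1.83% and 0 and the WT arrays between 1.22% and 4.88% (limma adjusted p = 0.984 for both).

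At the level of whole chromosomes, both Bmal1-/- arrays lay above the line 1 range on chromosome 14 alone, which is 1 of the 5, against 15.8% of the 19 chromosomes off chromosome 7, and on none of the 5 did they lie below it, against 10.5%. The difference of means on chromosome 14 was 0.484 points. With 5 arrays against 2 from 1 lineage each, no test of genotype apart from line was possible.

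The interaction of genotype and time, also without a term for line, gave 0 windows past the threshold with limma and 11 of 511 at an unadjusted p under 0.05, against 1.38% of all. Of these, 106 Mb on chromosome 14 had the smallest p (adjusted p = 1, limma), and the windows at 36, 79 and 72 Mb on chromosome 16 followed, each higher at CT22 than at CT34 in the Bmal1-/- line. The 24 h rhythm over 7 WT arrays gave 0 windows past the threshold and 22 of 511 at an unadjusted p under 0.05, against 4.91% of all. The leading window was at 28 Mb on chromosome 14, with 2.53%, 0%, 0.633%, 2.53% and 4.43% over the times of line 1 (limma adjusted p = 0.751). Line 2 held 4.43% at CT22 and 3.16% at CT34 there. These are few of 158 probes, and with the cut at the 90th percentile the amplitude fell from 3.06 to 0.168 in log2 odds. Fits for time, genotype and interaction had 2 or 3 residual degrees of freedom, so the lack of calls does not show that windows were alike.

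The comparison of the WT lines at matched times (line 2 against line 1, 4 arrays, 1 residual degree of freedom) also gave no window past the threshold on the log2 odds, with a smallest adjusted p of 0.214 (limma). At an unadjusted p under 0.05 there were 102 of the 511, against 22% of all windows. Of these, 62 were higher in line 2, against 11.4% of all windows, and 40 were lower, against 10.6%. Among the 5 windows of smallest p were 8 and 11 Mb on chromosome 18, both lower in line 2, and 73 Mb on chromosome 16, 92 Mb on chromosome 12 and 64 Mb on chromosome 12, each higher in line 2. At 8 Mb on chromosome 18 the share was 13.5% at CT22 and 8.51% at CT34 in line 1 against 2.84% and 1.42% in line 2, with 9.93% and 8.51% in the Bmal1-/- line. At 73 Mb on chromosome 16, the weakest window of that chromosome in line 1, both line 1 arrays held 0.637% and both line 2 arrays 5.10%. In windows of 2 Mb, 50 of the 257 windows of the 5 chromosomes passed in this comparison with limma (adjusted p under 0.05), which is 19.5% against 26.5% of all such windows, and 37 of the 50 were higher in line 2. The direction turned with the measure: with the mean log2 ratio 271 of 511 passed, 53.0% against 54.0% of all, and 268 of the 271 were lower in line 2, where the median of all windows was shifted by -0.10. With 1 residual degree of freedom, limma leaned largely on a variance shared over windows in such calls. Each line is 1 culture lineage, so these p-values do not measure the spread between cultures. By whole chromosome, line 2 lay below the line 1 range on chromosomes 13 and 18, which are 2 of the 5 against 42.1% of the 19, and above it on chromosome 14, which is 1 of the 5 against 36.8%.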

How the data were processed

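The deposited files give 1 log2 ratio per probe and array (Cy5-labelled 4C DNA over Cy3-labelled genomic DNA), written by NimbleScan and shifted by the array's Tukey biweight mean, per the file headers. The log base is NimbleScan's convention and is not written in the files. Scaling between arrays, background correction and the genome build are stated in none of the sources used. Every file held the same probes of 59 nt. The deposited log2 values were used as they stand, and shares of high probes, which depend on ranks within an array, were compared. The number of arrays limits the precision.

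Shares and spreads were compared between chromosomes by exact sign-flip permutation, and windows by limma 3.58.1 in R 4.3.3 (lmFit, eBayes, Benjamini-Hochberg over 2464 windows, two-sided) on log2((high + 0.5)/(not high + 0.5)). Python 3.11.15 with numpy 2.4.6, pandas 2.3.3 and scipy 1.17.1 did the rest. The fits were tested on simulated data with inserted changes of 1 and 2 in log2 odds. Apart from these changes, every simulated array had the window means and noise of line 1, so the lines did not differ. The time, genotype and interaction fits have no term for line, so their recovery in the real data may be lower than given here. As used, those for time, interaction and line recovered 0%, so a lack of calls in them is no evidence of alike windows. The genotype fit recovered 1% and 42%, and the rhythm fit 34% and 97%. With limma's trend and robust options the time fit recovered 31% and 87%, the interaction fit 7% and 34%, and the line fit 0%. In the real data those options called 0 of the 511 windows for time and interaction, which is no evidence of alike windows either. Windows were named by fixed rules: the 5 highest and the lowest of each chromosome by the line 1 mean, the 5 of smallest p per comparison, and the 100 kb pieces of the leading windows. The sixth windows, the first 10 Mb, 4 equal lengths and joined segments were added after values were seen. The chromosomes, lists and tests were chosen with earlier results of these data known. Replicate numbers 1 and 2 of WT stand for the cell lines, which therefore pair CT22 with CT34: the differences between lines at the 2 times correlated with r = 0.510 over 2342 windows off chromosome 7. Alternatives were other percentiles, measures, window sizes and filters, arrays left out and a replicate block, and precision weights, line 2 at its array-name times and line 2 left out were added after seeing the data.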

Additional observations from a re-analysis of the deposited data

Results flagged for a closer look

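Of 35 sets of the 5 line 1 arrays that were examined (shares, spreads and the strongest windows), 3 had an array that stood apart from the other 4 by Dixon's criterion, where chance gives about 1 in 20. The 5 arrays are different circadian times of 1 culture lineage, so an array and its time cannot be told apart.

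The spread of windows on chromosome 13 was 3.36 points at CT30, and the nearest other line 1 array was at 2.90 points. The window at 17 Mb on chromosome 16 held 17.8% high probes at CT30, against 13.4% in the nearest array. The window at 12 Mb on chromosome 18 held 17.3% at CT26, against 11.7% in the nearest.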

How the results depend on the processing

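Of the 10 chromosome pairs, 7 passed for the share and 7 for the spread. No pair passed at the 99th percentile, and none in the 5 line 1 arrays, where the smallest p possible is 0.0625. With the mean log2 ratio 4 pairs passed for the share, and with the interquartile range 4 for the spread. With 1 array left out, 7 to 9 pairs passed for the share and 7 for the spread, and with both line 2 arrays left out, an alternative chosen after seeing the data, 7 and 8. The 7 pairs called with all arrays were among them each time. Differences in share turned for 13 over 12 at the 90th percentile (-0.00641), for 12 over 16 and 18 over 13 at the 99th (-0.0419 and -0.0205) and by mean log2 ratio (-0.00778 and -0.0131, in array SDs), and for 18 over 13 without the ends (-0.0919). Differences in spread turned for 18 over 12 at the 90th percentile (-0.0114), for 12 over 16 at the 99th (-0.0533), for 18 over 12 and 18 over 16 by mean log2 ratio (-0.0192 and -0.00668), for 12 over 16 and 14 over 13 by interquartile range (-0.103 and -0.110), and for 14 over 13 in windows of 2 Mb and 500 kb (-0.0101 and -0.00445). The last ranged from -0.00169, without the CT26 array of line 1, to 0.117 with 1 array left out. The cause of these changes was not tested.

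The 11 windows called at all 5 times became 30 at the 90th percentile, 0 at the 99th, 2 in windows of 500 kb and 4 at an adjusted p of 0.01. With 1 line 1 array left out they numbered 11 to 17, the highest without CT46. Line 2 against line 1 gave 271 windows with the mean log2 ratio (268 lower in line 2; 53.0% against 54.0% of all windows), 37 after scaling by array SD (37 lower; 7.24% against 9.17%), 6 after quantile normalization (6 lower; 1.17% against 2.72%) and 50 in windows of 2 Mb (13 lower; 19.5% against 26.5%), by limma. These counts do not measure the spread between cultures, since each line is 1 culture lineage. Leaving out an array was not run for this comparison, since no residual degrees of freedom would remain. Single windows turned with the mean log2 ratio: 106 Mb on chromosome 14 for time (-0.0138), and 101 Mb on chromosome 12 (0.0492), 47 Mb on chromosome 18 (0.00970) and 44 Mb on chromosome 14 (0.0314) for genotype. The window at 64 Mb on chromosome 12 turned for line after scaling (-0.75).

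With line as a replicate block, 0 windows passed for time, genotype and interaction, and 16, 32 and 26 of the 511 had an unadjusted p under 0.05 (limma), which is 3.13%, 6.26% and 5.09%, against 2.64%, 5.28% and 5.15% of all windows. For genotype 23 of the 32 were higher in Bmal1-/-, against 6 of 16 without the block. The rhythm without the block gave 0, with 24 at that level (4.70% against 4.26%). The block changed no call.

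Line 2 has ratios in a narrow range, and 1 to 3 residual degrees of freedom limit the window tests, so a window that was not called is not shown to be alike between groups. The build is not given, and each line is 1 culture lineage.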
